A study of Mus musculus with 9 samples.

Results

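The cytosolic ribosome is built from ribosomal RNA and a fixed set of proteins, and the genes for those proteins were followed here in the forebrain of mouse embryos with 1 or both working copies of *Npas3*. Members were the genes whose symbol begins with Rpl or Rps followed by a number, with at most 1 letter of a, x, y or l and 1 more digit after it, together with *Rplp0*, *Rplp1*, *Rplp2* and *Rpsa*, and whose counts summed to at least 90 over the 9 samples. The symbol rule named 89 of the 55401 genes in the table, and 84 of them reached that sum. By symbol, and with pseudogenes included, 35 of the 84 belong to the small (40S) subunit and 49 to the large (60S) subunit. Of the 84, 80 are annotated as protein coding. The other 4, *Rps3a2*, *Rps3a3*, *Rps4l* and *Rpl32l*, are single-exon genes annotated as processed pseudogenes (copies of a spliced transcript put back into the genome). The members just inside the limit were *Rpl32l* with 151 counts and *Rps3a2* with 173 (the next, *Rps4l*, had 6821), and the genes just outside it were *Rpl39l* with 38, *Rpl3l* with 29, *Rpl6l* with 9, and *Rpl10l* and *Rps12l1* with 0. All 84 members passed the filter on low counts that left 17818 genes for testing.

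RNA-seq was performed on bulk forebrain of 5 *Npas3*+/+ (WT) and 4 *Npas3*+/- (HET) female embryos at embryonic day (E) 16 to 17. *Npas3* encodes a transcription factor of the basic helix-loop-helix PAS family, and 1 of its 2 alleles was deleted in every cell of the HET embryos, which were on the C57BL/6J background with littermates as WT controls. Embryos are called here by their genotype and the animal number of their label, such as WT16 or HET24. The labels name astrocytes as the cell type, while the paper describes bulk forebrain. The neuronal tubulin gene *Tubb3* lay between 1575 and 1885 CPM (counts scaled to the same library total in each embryo). Astrocyte markers were lower but differed widely. *Slc1a3* was at 247 to 319 CPM, *Slc1a2* at 82.7 to 185 and *Gja1* at 75.5 to 102. *Aldh1l1* was at 2.79 to 31.7 CPM, the filament gene *Gfap* at 4.23 to 12.5, *Aqp4* at 0.163 to 2.02 and *S100b* at 0.0883 to 0.326.

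Each library held 42640218 to 62830060 counts. *Npas3* was at 29.7 to 40.8 CPM in WT and 27.8 to 34.1 CPM in HET, so the groups overlapped for the targeted gene. *Ttr*, a choroid plexus gene, was at 2127 to 2631 CPM in WT15, WT16 and WT41 and at 467 CPM in HET24, against 0.770 to 11.7 CPM in the other 5 embryos. Of the 8 choroid plexus markers, 7 had log2 fold changes (HET minus WT) below 0 with a median of −2.89, and 5 had an unadjusted p under 0.05 by edgeR, though 0 passed an adjusted p of 0.05 by edgeR, DESeq2 or limma-voom. Their part in the results on ribosomal protein genes was not tested, but the counts of members called and of members higher in HET, the share of counts and the paralogue ratios were also computed in the 5 embryos with *Ttr* under 100 CPM. In bulk tissue, fewer cells of a type and less RNA per cell cannot be told apart.

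A ribosome takes up 1 copy of nearly every one of its proteins, so cells make these proteins in matched amounts, and unused ones are degraded. In mammals the transcripts begin with an unbroken stretch of pyrimidines, the terminal oligopyrimidine (TOP) element, through which the growth-regulating kinase complex mTORC1 and the RNA-binding protein LARP1 control their translation together. Many of these genes have also been copied into the genome many times by retrotransposition, and some have an expressed paralogue that can take the place of the usual protein.

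The start of the transcript is shown for 6 members because it is the sequence most of the family is known to share. Sequences are from RefSeq on GRCm38.p6, cover 10 bases before the annotated first base and 20 from it onward, and read 5′ to 3′ on the strand of the gene. Capitals mark the pyrimidine run: a C within 2 bases of the annotated first base, followed by at least 4 further letters that are all C or T.

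*Rps6*, chr4:86857348-86857377, minus strand: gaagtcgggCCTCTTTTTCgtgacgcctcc
*Rpl15*, chr14:18270967-18270996, minus strand: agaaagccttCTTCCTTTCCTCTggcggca
*Rpl13a*, chr7:45128726-45128755, minus strand: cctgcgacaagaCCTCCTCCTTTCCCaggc
*Rps27*, chr3:90213629-90213658, minus strand: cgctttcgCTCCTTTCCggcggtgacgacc
*Rps27l*, chr9:66946076-66946105, plus strand: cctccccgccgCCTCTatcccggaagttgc
*Rplp0*, chr5:115559457-115559486, plus strand: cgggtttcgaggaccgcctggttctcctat

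*Rps6* (a 40S protein phosphorylated downstream of mTORC1), *Rpl15* and *Rpl13a* held runs of 10, 13 and 14 pyrimidines. The run of *Rps6* started 1 base before the annotated first base, that of *Rpl15* on it and that of *Rpl13a* at base 3. The paralogues *Rps27* and *Rps27l* held runs of 9 and 5, and no run that met the definition lay at the annotated start of *Rplp0*. A start sequence was found for 61 of the 84 members, and 22 of the 61 (36.1%) held the run at 1 or more starts, against 2841 of 26964 other genes (10.5%) searched in the same way on the same strand. Of all annotated starts, 9.0% held it. The search depends on where the annotation places the first base, so these shares describe the letters in the windows alone.

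The RNA-seq of the study compared HET with WT embryos, and none of the 84 members passed the test for that comparison here. After Benjamini-Hochberg adjustment over all 17818 genes, the quasi-likelihood test of edgeR left 0 members at an adjusted p under 0.05, where 25 genes in all (0.140%) lay. DESeq2 called 0 members and 85 of 21417 genes (0.397%), and limma-voom called 0 members and 25 genes (0.140%). At an unadjusted p under 0.05 edgeR gave 1 member, *Rpl13*, against 5.42% of all tested genes. In 0 members did the HET embryos lie wholly above or below the WT embryos in CPM, as they did for 1.85% of tested genes.

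The fitted log2 fold changes (HET minus WT) were centred on 0. They were above 0 for 41 members and below 0 for 43, with a median of −0.002 over the members (0.003 with DESeq2 size factors and −0.009 with upper-quartile scaling) and −0.005 over all tested genes. The medians of the 40S and of the 60S genes were both −0.002. The 95% interval of the fold change lay within 0.5 of 0 on the log2 scale for 78 of 84 members, as for 2502 the 2633 tested genes at 100 CPM or more and for 63.5% of all tested genes. The 6 members with wider intervals were *Rplp0*, *Rpl34* and the 4 annotated pseudogenes.

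**Figure D1:**
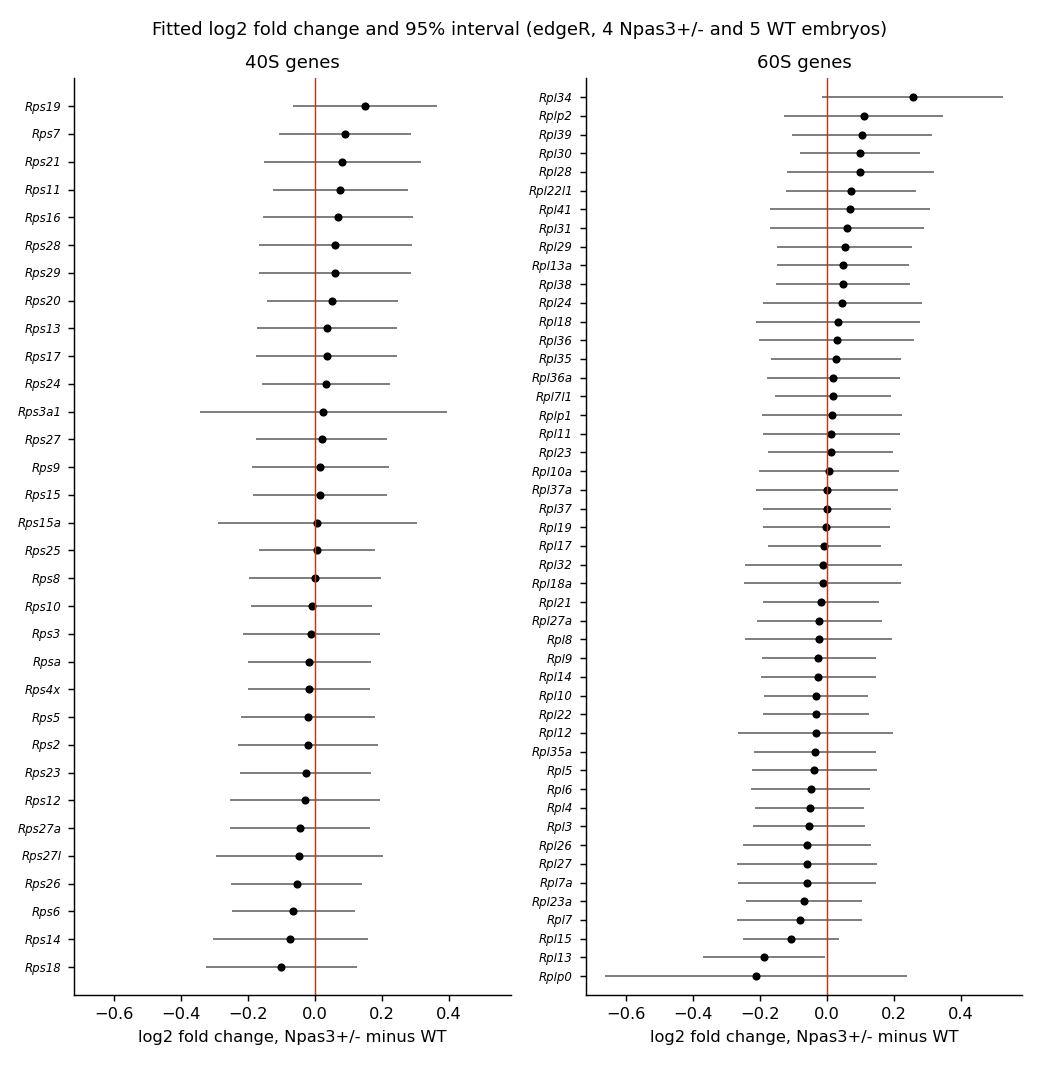
Fitted log2 fold change (HET minus WT, horizontal axis) of the 80 protein-coding members in rows, 40S genes on the left and 60S genes on the right. Points are edgeR estimates and lines 95% intervals over 4 HET and 5 WT embryos. All intervals but that of *Rpl13* cross 0, and those of *Rplp0* and *Rps3a1* are wide.

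The balance of signs rested on single embryos. Without WT16, 66 of 84 members were higher in HET, without HET7 65 were, and without WT15 20 were. In the 5 embryos with *Ttr* under 100 CPM (WT5 and WT43 against HET5, HET6 and HET7), 19 of 84 were higher and the median log2 fold change was −0.04. No member passed the adjusted threshold in any of these fits, and the fit to those 5 embryos had little power to find a change.

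The ribosomal protein genes rose and fell together from embryo to embryo, in both groups. They took 3.69% of all counts in WT16, 2.78% in WT15, 2.96% in WT41 and 2.81% in HET7, and 3.09% to 3.27% in the other 5 embryos. The mean share was 0.036 percentage points lower in HET than in WT. Each gene's log2 CPM was set against its own mean over the 9 embryos, and the median deviation of the 84 members was 0.20 in WT16, −0.18 in WT15, −0.16 in HET7, −0.09 in WT41 and between 0.01 and 0.08 in the other embryos. The highest median was in a WT embryo and the 3 lowest were in 2 WT embryos and 1 HET embryo, while the medians over all tested genes stayed between −0.004 and 0.012.

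WT16 held the highest value of 73 members (86.9%), where it held that of 18.6% of all tested genes, and WT15 held the lowest value of 54 members and HET7 that of 23. The 40S and 60S genes moved alike: their medians were 0.22 and 0.19 in WT16, −0.20 and −0.18 in WT15, and −0.15 and −0.16 in HET7. WT15, WT16 and WT41, with high *Ttr*, fell at both ends of the range. Radial glia markers (6 genes) had their highest median deviation in WT5, at 0.53, and their lowest in WT15, at −0.28, and erythroid markers (6 genes) ran from −0.81 in WT5 to 0.54 in WT16. The part of cell content in the deviations of the ribosomal protein genes was not tested.

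**Figure D2:**
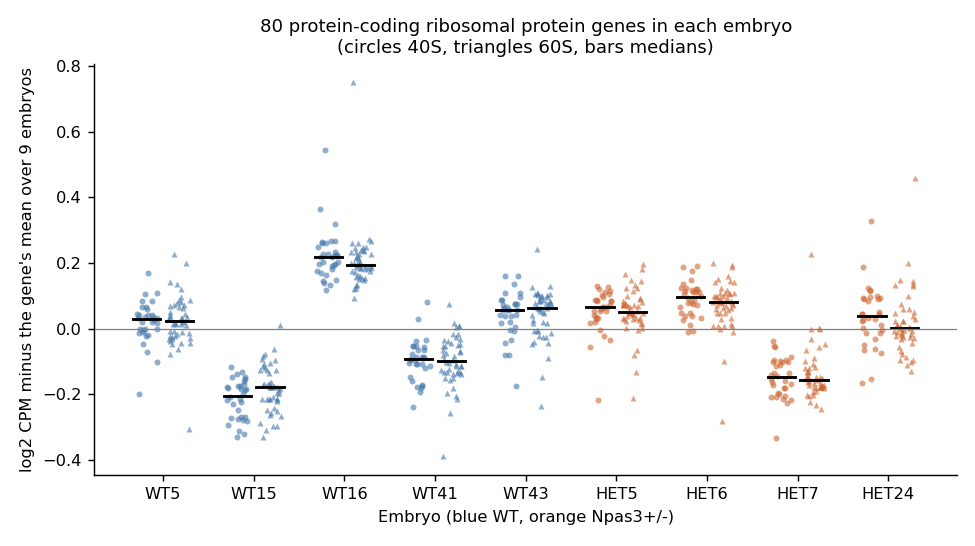
Deviation of each of the 80 protein-coding members from its own mean over the 9 embryos (log2 CPM, vertical axis), by embryo. Circles are 40S genes, triangles 60S genes, black bars medians, blue WT and orange HET. Whole columns of points sit high in WT16 and low in WT15 and HET7, and single points stand off the columns, above all in WT16 and HET24.

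Once the median of the members in an embryo was subtracted, less spread was left. The SD of log2 CPM over the 9 embryos had a median of 0.14 over the members, against 0.12 over all genes at 100 CPM or more. After the subtraction the median SD of the members was 0.06, with 69 of 84 members under 0.1. A drop is largely built in, because the median came from the same members. No such subtraction was made for the other genes. *Rpl27a* (SD 0.017), *Rpl5* (0.021) and *Rplp1* (0.024) were among those that followed the others most closely. *Rplp0* (0.318), *Rpl34* (0.256), *Rps3a1* (0.191), *Rps15a* (0.176) and *Rplp2* (0.137) departed from them most among the protein-coding members. These members are described in turn.

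Small subunit genes are given first. *Rpsa*, the 40S protein that also serves as a laminin receptor, was at 887 ± 71.4 CPM in WT (SD, n = 5) and 876 ± 75.6 CPM in HET (SD, n = 4). *Rps3*, which lies at the entry of the mRNA channel, was at 838 ± 86.5 CPM and 831 ± 78.7 CPM. *Rps6* was at 405 ± 35.1 CPM and 387 ± 34.4 CPM. The differences were smaller than the SD within either group. *Rps14*, a protein of the 40S platform, was at 640 ± 88.2 CPM and 608 ± 56.1 CPM, and *Rps26*, which contacts mRNA at the exit of its channel, at 369 ± 39.9 CPM and 355 ± 27.4 CPM. *Rps27a*, whose product is a fusion of ubiquitin with a 40S protein, was at 448 ± 52.0 CPM and 434 ± 38.9 CPM.

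*Rps19*, mutated in many patients with Diamond-Blackfan anaemia, had the highest log2 fold change of the 40S genes, 0.15 ± 0.10 (SE, unadjusted p = 0.154, adjusted p = 0.911 by edgeR). Its CPM was 255, 199, 272, 217 and 246 in WT5, WT15, WT16, WT41 and WT43, and 257, 283, 233 and 282 in HET5, HET6, HET7 and HET24. The groups overlapped, and the 2 highest values were in HET6 and HET24. The log2 fold change was 0.09 without WT15 and 0.04 in the embryos with *Ttr* under 100 CPM. *Rps15a* lay at 402 CPM in WT15, 448 in WT43, 435 in HET5 and 486 in HET7, and at 515 to 651 CPM in the other 5 embryos, with a log2 fold change of 0.01. Its low embryos belonged to both groups.

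Among the large subunit genes, *Rpl5* and *Rpl11*, whose products bind 5S ribosomal RNA and, when free of ribosomes, the p53 regulator MDM2, were at 379 ± 37.3 and 391 ± 46.3 CPM in WT and 370 ± 27.2 and 395 ± 33.0 CPM in HET. *Rpl10*, a late-joining protein of the 60S subunit, was at 578 ± 34.9 CPM in WT and 565 ± 39.4 CPM in HET, and *Rpl23*, another product that binds MDM2, at 470 ± 41.7 and 474 ± 41.2 CPM. *Rpl13a*, also known for a role in silencing of inflammatory transcripts outside the ribosome, was at 149 ± 15.9 and 154 ± 13.8 CPM. Genes on the same strand (*Gm45713*, *Mir5121* and *Snord33*) together overlap 35.4% of its exonic bases, so its counts are less certain. None of these means was further apart than the SD within a group.

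*Rpl13*, a 60S protein gene, was the only member with an unadjusted p under 0.05. It was at 320, 304, 381, 324 and 381 CPM in WT5, WT15, WT16, WT41 and WT43, and at 321, 301, 282 and 298 CPM in HET5, HET6, HET7 and HET24. HET5 lay above the 2 lowest WT embryos, so the groups overlapped. The log2 fold change was −0.19 ± 0.08 (SE, unadjusted p = 0.0452, adjusted p = 0.911 by edgeR), which did not pass the threshold. *Rpl15* had a log2 fold change of −0.11 ± 0.07 (SE, adjusted p = 0.911 by edgeR).

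*Rpl34*, another 60S protein gene, had the highest log2 fold change of all members. It was at 150, 160, 198, 169 and 187 CPM in the WT embryos in the same order and at 169, 184, 217 and 255 CPM in HET5, HET6, HET7 and HET24. HET7 and HET24 lay above all WT embryos, while HET5 and HET6 lay among them. The log2 fold change was 0.26 ± 0.12 (SE, unadjusted p = 0.0610, adjusted p = 0.911 by edgeR), and 0.14 without HET24. HET7 is an embryo in which most members were low, so *Rpl34* ran against the family there. *Rpl39*, which lines the exit tunnel of the 60S subunit, had a log2 fold change of 0.10 ± 0.10 (SE, adjusted p = 0.913 by edgeR), which was 0.06 without WT15 or HET6 and 0.17 without WT16 or HET7.

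The RNA of the 3 genes for the stalk, which recruits translation factors to the 60S subunit, did not move as 1 unit. *Rplp1* lay at 578, 490, 670, 524 and 590 CPM in WT and 604, 604, 511 and 586 CPM in HET, and its values kept to the pattern of the family. *Rplp2* was at 293, 212, 292, 213 and 230 CPM in WT and at 273, 264, 255 and 279 CPM in HET. Its HET embryos were close together between a low group of 3 WT embryos and a high pair, with a log2 fold change of 0.11 ± 0.11 (SE, adjusted p = 0.913 by edgeR). It was 0.06 without WT15 or WT41, 0.18 without WT5 or WT16, and 0.01 in the embryos with *Ttr* under 100 CPM. *Rplp0* was at 840, 724, 1207, 548 and 609 CPM in WT and at 620, 590, 717 and 787 CPM in HET. Its log2 fold change of −0.21 ± 0.20 (SE, adjusted p = 0.913 by edgeR) was the lowest of the protein-coding members, and WT16 stood far above the rest. Without WT16 it was −0.003, and without WT41 −0.32. When counts of *Rplp0* were summed with those of its copies, described below, it was −0.12. The SD left after subtracting the median of the members then fell from 0.318 to 0.152. The departure of *Rplp0* from the other stalk genes is thus uncertain.

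Levels between members were compared as mean CPM per kb of exon, the union of all annotated exons of a gene. The protein-coding members spread from 21.8 to 1148 CPM per kb. The 6 highest were *Rplp1* (1148), *Rps15* (806), *Rpl4* (644), *Rps4x* (612), *Rpl32* (596) and *Rpl36* (535). The 6 lowest were *Rps3a2* (0.468), *Rpl32l* (0.892), *Rps4l* (16.5), *Rpl24* (21.8), *Rps10* (30.4) and *Rpl7l1* (31.0). Per kb of the principal transcript alone the order changed: *Rplp1*, *Rps12*, *Rps4x* and *Rps15* were highest at 1148, 1086, 1025 and 1016 CPM per kb, and *Rps10* and *Rpl24* at 79.2 and 33.2 CPM per kb.

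The low level of *Rpl24* belongs to a gene with 47% of its exonic bases shared on the same strand with *Gm28037*, which was listed at 0 in all 9 embryos. *Rps10* shares 20.6% of its bases on the same strand with other annotated genes. Exons of the opposite strand overlapped 66.2% of *Rpl35* and 59.7% of *Rpl23a*. How reads from shared sequence or from either strand were assigned is not given in the sources used here, so the levels of these members are uncertain.

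**Figure D3:**
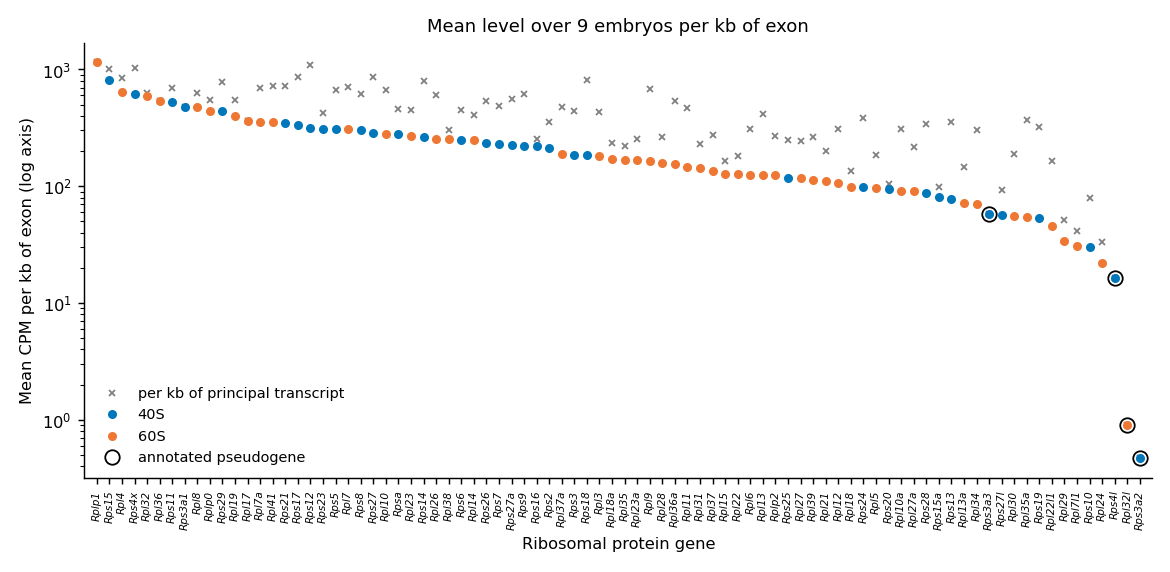
Mean CPM per kb of exon over the 9 embryos (log vertical axis) of the 84 members in falling order, blue 40S and orange 60S. Rings mark the 4 annotated pseudogenes and grey crosses give the same level per kb of the principal transcript. Levels fall slowly from *Rplp1* at 1148 and drop at the end to *Rps3a2* at 0.468.

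Next, expressed paralogues were set against their main gene in the same embryo, which does not depend on how libraries are scaled. Of 7 pairs named by symbol, 4 had both genes among the members. Counts of *Rpl22l1* were 23.5% of those of *Rpl22* in WT and 25.2% in HET, those of *Rps27l* 15.8% and 15.1% of *Rps27*, those of *Rpl7l1* 12.8% and 13.7% of *Rpl7*, and those of *Rps4l* 1.6% and 1.53% of *Rps4x*. *Rpl22l1* can stand in for *Rpl22* in ribosomes, *Rps27l* is also a target of p53, and *Rpl7l1* is a homologue of *Rpl7*.

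The mean log2 ratio of *Rpl7l1* to *Rpl7* was −2.97 ± 0.07 in WT (SD, n = 5) and −2.87 ± 0.08 in HET (SD, n = 4), a difference of 0.10 (exact two-sided permutation p = 0.103, adjusted over the 4 pairs 0.412). HET5, HET6 and HET7 lay above all WT embryos at −2.81, −2.85 and −2.84, and HET24 lay among them at −3.00. For *Rpl22l1* to *Rpl22* the difference was 0.10 (exact permutation p = 0.262, adjusted 0.508), for *Rps27l* to *Rps27* −0.07 (exact permutation p = 0.381, adjusted 0.508), and for *Rps4l* to *Rps4x* −0.08 (exact permutation p = 0.706, adjusted 0.706). The smallest p possible with 5 and 4 embryos was 0.016, and no pair passed the threshold.

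**Figure D4:**
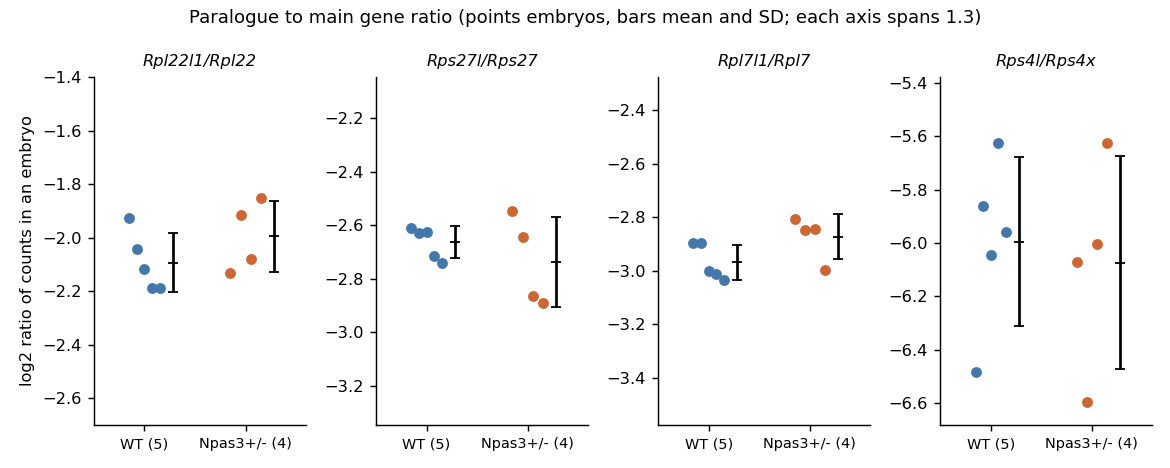
log2 ratio of counts of a paralogue to its main gene (vertical axes, each 1.3 units tall) in each embryo, WT blue and HET orange, with mean and SD as black bars. The groups overlap in all 4 pairs, and the ratios of *Rps4l* to *Rps4x* spread the most.

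Most of the sequence of these genes is not unique to them. A row of the table was taken as a copy of a member when it was a pseudogene, or another member, whose transcripts shared at least 100 different words of 50 bases with those of the member. By this definition 408 rows were copies of 71 members, and 13 members had none. Of the copies 47 reached 1 CPM in an embryo and 54 were at 0 in all. A read inside a shared word has more than 1 place of origin in the annotation.

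Between HET and WT, 0 of 85 tested copies passed an adjusted p of 0.05 by edgeR, with 4 at an unadjusted p under 0.05, and limma-voom called 0 and DESeq2 1. The groups did not overlap in 4 of the 85, where they did not in 1.85% of all tested genes. They were *Rps7-ps3*, *Rpl34-ps1* (log2 fold change −0.62, adjusted p = 0.908 by edgeR), *Gm15421*, a copy of *Rpl22l1* (0.52, adjusted p = 0.908), and *Gm9294*, a copy of *Rps4x* (0.37, adjusted p = 0.911), the last 3 of them under 1 CPM in every embryo. From embryo to embryo, by contrast, 10 of the 85 (11.8%) reached 1 CPM and differed by at least 10-fold between their highest and lowest embryo, where 1.016% of all tested genes did so. Those with the most counts belonged to *Rps3a1*, *Rplp0*, *Rps7* and *Rpl15*.

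A stretch of 60 coding bases is shown for 3 of these genes and their copies to make plain how alike they are. It is the stretch of 1 exon that differs most between the gene and the first copy given. Sequences are from GENCODE release M21 transcripts on GRCm38, and capitals in a copy mark bases that differ from the first line of its set.

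*Rps3a1*, chr3:86141333-86141392, minus strand: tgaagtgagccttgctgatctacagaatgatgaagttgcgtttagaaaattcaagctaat
*Rps3a3*, chr13:108670803-108670862, plus strand: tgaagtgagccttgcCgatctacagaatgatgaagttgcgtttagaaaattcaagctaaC
*Rps3a2*, chr14:88123549-88123608, minus strand: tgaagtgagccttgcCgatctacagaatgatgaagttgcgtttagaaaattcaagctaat
*Rplp0*, chr5:115561168-115561227, plus strand: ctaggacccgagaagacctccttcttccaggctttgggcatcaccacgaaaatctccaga
*Gm8730*, chr8:102865352-102865411, minus strand: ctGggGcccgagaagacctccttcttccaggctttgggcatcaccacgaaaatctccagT
*Gm9625*, chr13:67810633-67810692, plus strand: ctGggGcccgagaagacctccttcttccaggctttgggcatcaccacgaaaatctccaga
*Rps7*, chr12:28635581-28635640, minus strand: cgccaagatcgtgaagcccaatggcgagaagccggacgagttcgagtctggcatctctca
*Rps7-ps3*, chrX:152910047-152910106, minus strand: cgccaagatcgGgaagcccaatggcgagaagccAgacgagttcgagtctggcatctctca
*Gm9493*, chr19:23619750-23619809, plus strand: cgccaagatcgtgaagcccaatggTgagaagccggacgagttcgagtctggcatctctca

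Over the whole of their transcripts the single-exon copies differed from the spliced gene at few bases. *Rps3a3* differed from *Rps3a1* at 9 of 795 aligned bases (98.9% identity) and *Rps3a2* at 4 of 792 (99.5%). *Gm8730* differed from *Rplp0* at 12 of 954 (98.7%) and *Gm9625* at 24 of 954 (97.5%). *Rps7-ps3* differed from *Rps7* at 4 of 651 (99.4%). *Rps4l* stood apart, with 80.2% identity to *Rps4x* over 802 aligned bases.

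*Rps3a3* was present in 7 embryos and nearly absent from 2. It was at 62.4, 56.4, 0.370, 59.0 and 61.8 CPM in WT5, WT15, WT16, WT41 and WT43, and at 60.2, 64.5, 51.1 and 0.230 CPM in HET5, HET6, HET7 and HET24. *Rps3a1*, the gene for a 40S protein of which it is a copy, was at 426, 379, 666, 403 and 432 CPM and at 439, 473, 391 and 574 CPM in the same order. The pair of embryos with almost no counts of *Rps3a3*, 1 WT and 1 HET, were the 2 with the highest *Rps3a1*. The log2 fold change of *Rps3a3* between the groups was −0.13 with an SE of 1.05 (unadjusted p = 0.906, adjusted p = 0.989 by edgeR), and without HET24 it was 0.29.

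*Rplp0* and its copies fell into 3 levels. *Gm8730* was at 81.2, 68.8, 1.20, 148 and 168 CPM in WT and at 170, 158, 66.4 and 71.9 CPM in HET, and *Gm9625* at 22.4, 20.04, 1.04, 43.7 and 47.5 CPM in WT and at 48.6, 47.5, 19.2 and 26.9 CPM in HET. The copies lie on chromosomes 8 and 13. Both were lowest in WT16, intermediate in WT5, WT15, HET7 and HET24, and highest in WT41, WT43, HET5 and HET6. *Rplp0* ran in the opposite order: 1207 CPM in WT16, 717 to 840 CPM in the intermediate embryos and 548 to 620 CPM in the other 4. The middle and the upper level each held both genotypes.

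*Rps7*, the gene for another 40S protein, had the copy with the lowest p between HET and WT. *Rps7-ps3*, on the X chromosome, was at 30.9, 24.6, 35.0, 2.03 and 15.3 CPM in WT and at 1.91, 1.86, 1.41 and 1.84 CPM in HET. The HET embryos lay below all WT embryos, with WT41 beside them. The log2 fold change was −3.62 (SE 0.65, adjusted p = 0.0871 by edgeR), and DESeq2 gave −3.62 with an adjusted p of 3.71e-05 and limma-voom −3.01 with an adjusted p of 0.922. *Gm9493*, a second copy on chromosome 19, was at 0.1203, 0.0885, 0.0435, 1.02 and 0.795 CPM in WT and at 1.23, 1.49, 1.03 and 0.960 CPM in HET, lowest in WT5, WT15 and WT16, where *Rps7-ps3* was highest. *Rps7* itself was at 406, 397, 505, 475 and 490 CPM in WT and at 508, 512, 435 and 480 CPM in HET, with overlapping groups and an adjusted p of 0.913 by edgeR. *Rps7* lies on chromosome 12, as does *Npas3*, and any part of that position in these counts was not tested.

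The 3 copies of *Rpl15* that reached 1 CPM were present in 6 embryos and nearly absent from 3 WT embryos, while its other copies were under 0.24 CPM in every embryo. *Rpl15-ps2* on chromosome 9 was at 0.0481, 0.0315 and 0.243 CPM in WT5, WT41 and WT43 and at 15.4 to 21.6 CPM in the other 6 embryos. *Rpl15-ps6* on chromosome 15 was at 0, 0.0158 and 0 CPM in the same 3 embryos and at 8.31 to 10.8 CPM in the others, and *Gm6937* on chromosome 19 was at 0 to 0.0662 CPM and at 1.67 to 2.56 CPM. The 3 rows on 3 chromosomes thus changed in the same embryos. *Rpl15* was at 312, 332 and 339 CPM in WT5, WT41 and WT43, and at 285 to 349 CPM in the others.

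**Figure D5:**
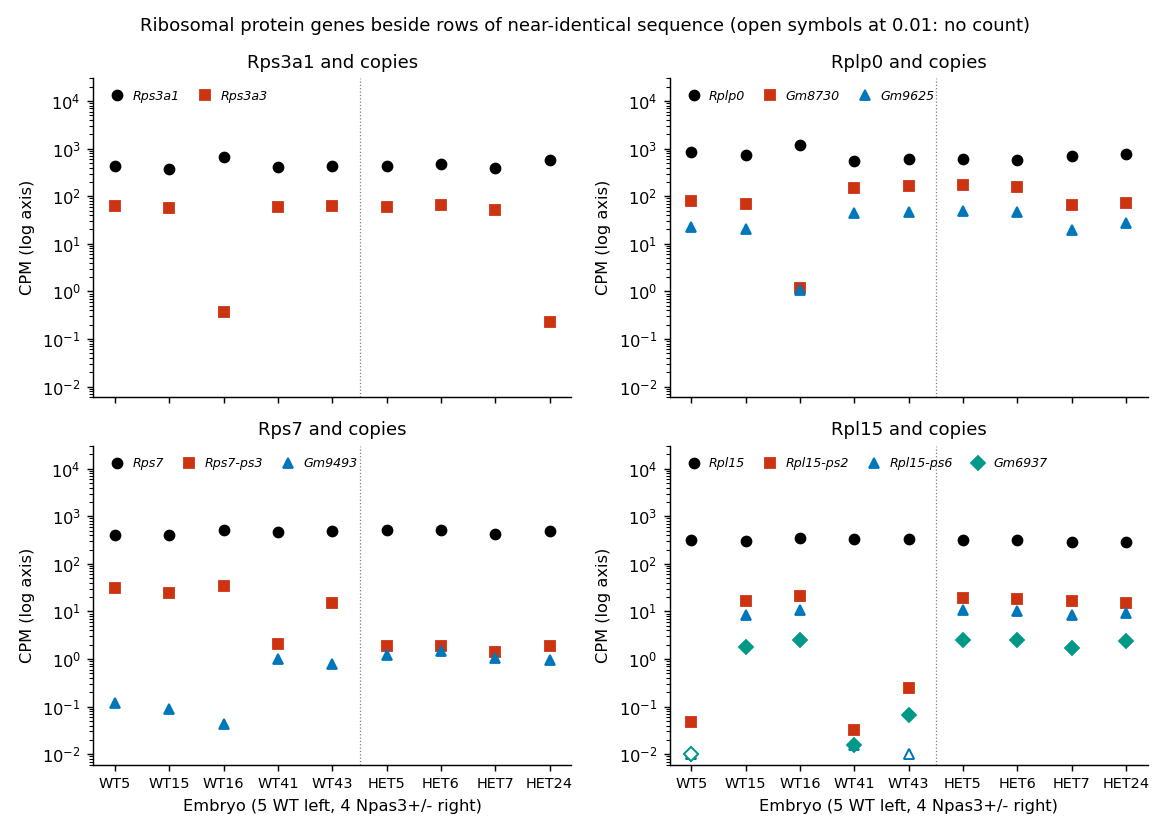
CPM (log vertical axis) of 4 members (black circles) and of their copies (coloured symbols) in each embryo, 5 WT on the left and 4 HET on the right of the dotted line. Open symbols at 0.01 are rows with no count. The members differ little on this scale, while copies drop by up to 2 orders of magnitude or more in particular embryos, WT16 and HET24 for *Rps3a3*.

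The counts of each member were therefore also summed with those of its copies, a choice made after these values were seen. *Rps3a1* with its copies was at 489, 436, 668, 463 and 495 CPM in WT and at 500, 538, 442 and 575 CPM in HET, and the SD that remained after subtracting the median of the members fell from 0.191 to 0.109. For *Rplp0* it fell from 0.318 to 0.152, for *Rps7* from 0.103 to 0.068, for *Rps13* from 0.085 to 0.058 and for *Rpl15* from 0.092 to 0.082. Over the 69 members to which rows were added, the SD became smaller in 21, larger in 19 and was the same to 3 decimals in 29. It stayed at 0.256 for *Rpl34* and 0.176 for *Rps15a*. Of 82 members fitted in this way, 0 passed an adjusted p of 0.05 by edgeR. The log2 fold change of *Rplp0* went from −0.21 to −0.12 and that of *Rpl15* from −0.11 to −0.03.

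The rest of the translation machinery was read from lists written beside the rule. None of the genes in the following lists passed an adjusted p of 0.05 by edgeR, DESeq2 or limma-voom. Of 3 ribosomal protein genes outside the symbol rule, 0 had an unadjusted p under 0.05. *Fau*, whose product is fused to a ubiquitin-like protein, had a log2 fold change of 0.01, *Rpl36al* 0.03, and *Rack1*, a scaffold on the 40S subunit, −0.10. All 3 were highest in WT16.

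Of 19 translation factor and other genes with TOP transcripts, 15 had log2 fold changes below 0 and 4 above (median −0.045, and −0.026 without WT16), with 0 at an unadjusted p under 0.05. The lowest p was that of *Eif3e*, a subunit of initiation factor eIF3, at −0.14 ± 0.07 (SE, adjusted p = 0.911 by edgeR). Of 42 genes of ribosome assembly, 29 were below 0 and 13 above (median −0.038, and −0.013 without WT16), 0 of them at an unadjusted p under 0.05, and *Gnl2*, a GTPase of 60S assembly, had the lowest p at −0.12 ± 0.06 (SE). WT16 was the highest embryo for 12 of the 19 and 20 of the 42.

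Of 15 genes of mTORC1 signalling and LARP1, 1 had an unadjusted p under 0.05, where 5.42% of all tested genes did. It was *Larp1*, whose product binds TOP transcripts, at 135 CPM in WT and 158 CPM in HET on average. Its log2 fold change was 0.22 ± 0.08 (SE, unadjusted p = 0.0153, adjusted p = 0.896 by edgeR). Its groups overlapped. WT16 was highest for 3 of these 15 genes. Of 11 tested p53 targets, 0 had an unadjusted p under 0.05, and the lowest was that of *Bbc3*, a mediator of apoptosis, at 0.20 ± 0.13 (SE).

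Genes of 2 other large complexes were compared for the embryo pattern. WT16 held the highest value of 63 of 79 mitochondrial ribosomal protein genes (79.7%) and of 32 of 38 proteasome subunit genes (84.2%). Their median deviations in WT16 were 0.18 and 0.23, close to the 0.20 of the members, and those in HET7 were −0.11 and −0.16. In WT15 the medians were −0.06 and −0.09 against −0.18 for the members. Between HET and WT, 65 of the 79 and 35 of the 38 had log2 fold changes below 0, with medians of −0.06 and −0.08 that became −0.02 and −0.02 without WT16, and 0 in either list had an unadjusted p under 0.05.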

How the data were processed

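Forebrain RNA from 5 WT and 4 HET embryos was sequenced after poly(A) capture and TruSeq library preparation, and the authors used 1 read of each pair. Per the submitters' processing notes and the paper's methods, reads were aligned to GRCm38.p6 with STAR 2.7.9a and counted with featureCounts. The deposited values are raw counts per gene, 1 column per embryo, which the authors left without normalization. How strand and multi-mapped reads were treated is not given in the sources used here. Samples were grouped by the genotype and the name in their labels, and no 2 columns were identical.

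Genes were filtered with filterByExpr (minimum count 10), scaled by TMM and tested over all 9 samples without covariates using the quasi-likelihood test of edgeR 4.0.16 in R 4.3.3, with Benjamini-Hochberg adjustment over all tested genes and a threshold of 0.05. CPM is the count scaled by the TMM library size, as edgeR defines it. DESeq2 1.42.0, limma-voom (limma 3.58.1), other scalings and filters, a choroid plexus covariate, a gene length offset and leaving out each embryo were alternatives. Paralogue ratios used a prior count of 2 and an exact permutation test. The edgeR script was tested on simulated counts. Gene models and transcripts were from GENCODE release 21 of mouse (M21), which lists 55141 of the table's genes, and start sequences from RefSeq. Alignments used Biopython 1.88.

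Named genes were members past the threshold or with groups that did not overlap (none), the 5 highest and 5 lowest log2 fold changes, the 6 highest and 6 lowest levels per kb of exon, the paralogue pairs, members of known role, and up to 4 genes of lowest p in each list. 1 listed gene is not reported here. *Rps15a*, *Rps7*, *Rps3a1*, *Rps13*, *Rpl27a*, *Rpl35*, *Rpl23a*, *Rps12* and the copies were named after their values were seen. The members and the lists were chosen with earlier results of these data known. Nothing states that the embryos came from separate litters, so p-values measure the spread between these samples.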

Additional observations from a re-analysis of the deposited data

Results flagged for a closer look

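In 50 groups of embryos (the WT or the HET embryos for a value given above), 6 held 1 embryo whose gap to its nearest neighbour took up most of the range of the group. Chance gives about 1 in 20 such groups, or 2.5, but the pseudogene copies among them were chosen because their values differed between embryos, so nothing was read from the number. In WT, WT16 stood apart with 666 CPM of *Rps3a1* and 0.370 CPM of *Rps3a3*. In HET, HET7 stood apart with 1.41 CPM of the *Rps7* copy *Rps7-ps3*, within a narrow range. The other 3 belonged to 2 copies of the 60S gene *Rpl29*. *Gm5561* was at 4.195 CPM in WT43 and at most 0.0722 CPM in the other WT embryos. *Gm13841* was at 7.59 CPM in HET6 and without counts in the other HET embryos, and was at 0.0221 CPM in WT15 and without counts in the other WT embryos.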

How the results depend on the processing

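The count of members past the adjusted threshold was 0 under every alternative run. Members at an unadjusted p under 0.05 numbered 0 with DESeq2, with DESeq2 size factors in edgeR and in the embryos with *Ttr* under 100 CPM, 2 with the choroid plexus covariate, and 0 to 2 when 1 embryo was left out. Members higher in HET numbered 19 in the embryos with *Ttr* under 100 CPM and 20 to 66 when 1 embryo was left out, and their median log2 fold change then ran from −0.05 to 0.05. All genes called numbered 85 with DESeq2, 15 in the embryos with *Ttr* under 100 CPM and 14 to 23 when 1 embryo was left out. The difference in the share of counts ran from −0.127 to 0.101 percentage points when 1 embryo was left out. The difference in the ratio of *Rpl7l1* to *Rpl7* ran from 0.073 to 0.136, passing an unadjusted p of 0.05 without HET24 (exact permutation p = 0.0357). HET24 was the only HET embryo that lay among the WT embryos for this ratio, so leaving it out separated the groups. The difference for *Rps4l* to *Rps4x* ran from −0.23 to 0.10 and turned positive at 0.01 without WT41 and at 0.10 without HET6. When 1 embryo was left out, the log2 fold change of *Rps3a3* ran from −0.448 to 0.29, positive without HET24, and that of *Rpl32l* from −0.078, without HET5, to 0.337. The cause of these changes was not tested beyond the embryos left out. For the 10 members whose log2 fold changes were followed, the other 184 alternative values kept their direction and stayed on the same side of the threshold. Their sizes were less stable: *Rplp0* moved from −0.211 to −0.003 without WT16, and *Rps3a2*, the lowest at −0.748 ± 0.583 (SE) from 5 to 67 counts per embryo, to −0.111 without WT41, to −0.498 without HET7 and to −1.277 without HET24. No paired analysis was made, because the labels do not give the litter of an embryo. WT5 and HET5 share a label number but differ in genotype, so they are different embryos.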
